A study of Mus musculus with 2 samples.

Results

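Barcodes rich in both Gh, the growth hormone transcript, and Prl, the prolactin transcript, made up 173 of the 13565 barcodes that passed the filters. A barcode stands for 1 droplet, and a unique molecular identifier (UMI) for 1 captured transcript. Members had at least 250 genes, at most 20% mitochondrial UMIs, and at least 10% of all their UMIs in Gh and at least 10% in Prl. The hormone levels therefore chose the members and are given only as a description. The cells came from dispersed pituitaries of C57BL/6 males aged 7 weeks, digested for 4 h and captured for droplet 3' RNA sequencing. Each of the 2 libraries was made from 3 pooled glands, with no treatment, no mutant allele and no second condition in either pool. The number at the end of a barcode was read as the number of the pool. The libraries are the replicates here, 2 pools of untreated male mice. The main gene tests take out the overall difference between the libraries. Their p-values rest on how group differences vary between the 2 pools, with that spread estimated largely across all genes. The main fit had 3 residual degrees of freedom per gene. Its prior degrees of freedom, the weight given to the spread shared across genes, had a median of 31.4.

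Somatotropes make growth hormone and lactotropes make prolactin, and both arise from precursors that depend on the transcription factor Pou1f1. Cells that make both hormones, called mammosomatotropes, have long been described in the pituitary, mostly by hormone staining. A droplet can also capture a somatotrope together with a lactotrope, and transcripts freed from broken cells enter every droplet.

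Gh lies on chromosome 11 at 106300271 to 106301865 on the minus strand, and Prl on chromosome 13 at 27057570 to 27065205 on the plus strand (GENCODE, mouse build GRCm38). Pou1f1 lies on chromosome 16 at 65520511 to 65535005. The promoter windows of Prl and Pou1f1, 250 bases before to 50 after the start, are shown because one is a member-defining hormone and the other the factor that both lineages share (RefSeq, GRCm38.p6, chr13:27057320-27057619 and chr16:65520262-65520561, both on the plus strand). No window for Gh was printed. Capitals mark TATNCAT on either strand, the core of the sequence that Pou1f1 binds.
Prl: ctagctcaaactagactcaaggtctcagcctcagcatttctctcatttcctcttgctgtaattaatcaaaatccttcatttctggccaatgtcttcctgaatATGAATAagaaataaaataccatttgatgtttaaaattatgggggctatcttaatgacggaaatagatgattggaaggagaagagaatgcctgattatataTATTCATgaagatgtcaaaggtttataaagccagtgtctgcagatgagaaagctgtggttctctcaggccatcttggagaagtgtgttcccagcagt
Pou1f1: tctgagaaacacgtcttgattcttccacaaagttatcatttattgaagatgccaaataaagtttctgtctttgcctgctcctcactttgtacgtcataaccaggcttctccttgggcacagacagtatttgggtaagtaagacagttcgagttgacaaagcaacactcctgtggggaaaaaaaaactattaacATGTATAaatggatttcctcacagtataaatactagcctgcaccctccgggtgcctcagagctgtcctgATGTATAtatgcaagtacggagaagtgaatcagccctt
Each window holds 2 matches, and in Prl they begin 148 and 47 bases before the start. A second Pou1f1 window in the table, chr16:65523059-65523358, holds 0, and one of the printed Pou1f1 matches lies after the start. The letters occur in a window of 10.2% of the 27025 genes that have one, and in 8.84% of all 32851 windows. They occur for 1 of the 37 genes with a window among 52 genes specific to Gh-rich barcodes and for 1 of the 31 among 49 genes specific to Prl-rich barcodes, groups that are defined next. A match describes letters only.

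Members were set beside 2 groups of single-hormone barcodes. Gh-rich barcodes had over 30% Gh and under 10% Prl, and numbered 3610 in library 1 and 3573 in library 2. Prl-rich barcodes had over 15% Prl and under 10% Gh, and numbered 1230 and 1513. Library 1 held 101 members among 6505 barcodes, which is 1.55% (95% exact binomial interval 1.27 to 1.88). Library 2 held 72 among 7060, which is 1.02% (0.799 to 1.28). Intervals cover counting error only, and these 2 just overlap. The labels expect 7.6% of barcodes to hold more than 1 cell, a rate stated for a target of 10000 cells, while the files hold 6546 and 7117 barcodes. If that share applied here and held random pairs, Gh-rich and Prl-rich barcodes would pair in 104 barcodes of library 1 (1.60%) and 116 of library 2 (1.65%). Not every such pair would reach 10% in both hormones, so these figures are set beside the counts without a test. The libraries shared 54 barcode sequences, and 0 members were among them.

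Members spread over a wide range of hormone shares rather than around 1 value. In library 1 Gh took from 10.3% to 51.4% of a member's UMIs with a median of 22.7%, and in library 2 from 10.8% to 49.0% with a median of 31.2%. Prl took from 10.1% to 44.5% with a median of 17.6% in library 1, and from 10.2% to 37.8% with a median of 17.1% in library 2. Both libraries thus reach similar extremes, with a higher central Gh share in library 2. The Gh-rich medians were 61.9% and 61.1% Gh with 0.223% and 0.249% Prl. The Prl-rich medians were 34.6% and 38.4% Prl with 0.963% and 0.744% Gh. Single-hormone barcodes therefore held the other hormone at a low level, near that of barcodes with UMIs of at least 3 endothelial markers, which lack both hormones as a cell type. The endothelial-marked barcodes were also chosen to hold under 10% of either hormone, so none could reach that limit. Those 130 and 174 barcodes had medians of 1.03% and 0.818% Gh, and of 0.245% and 0.300% Prl.

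**Figure D1:**
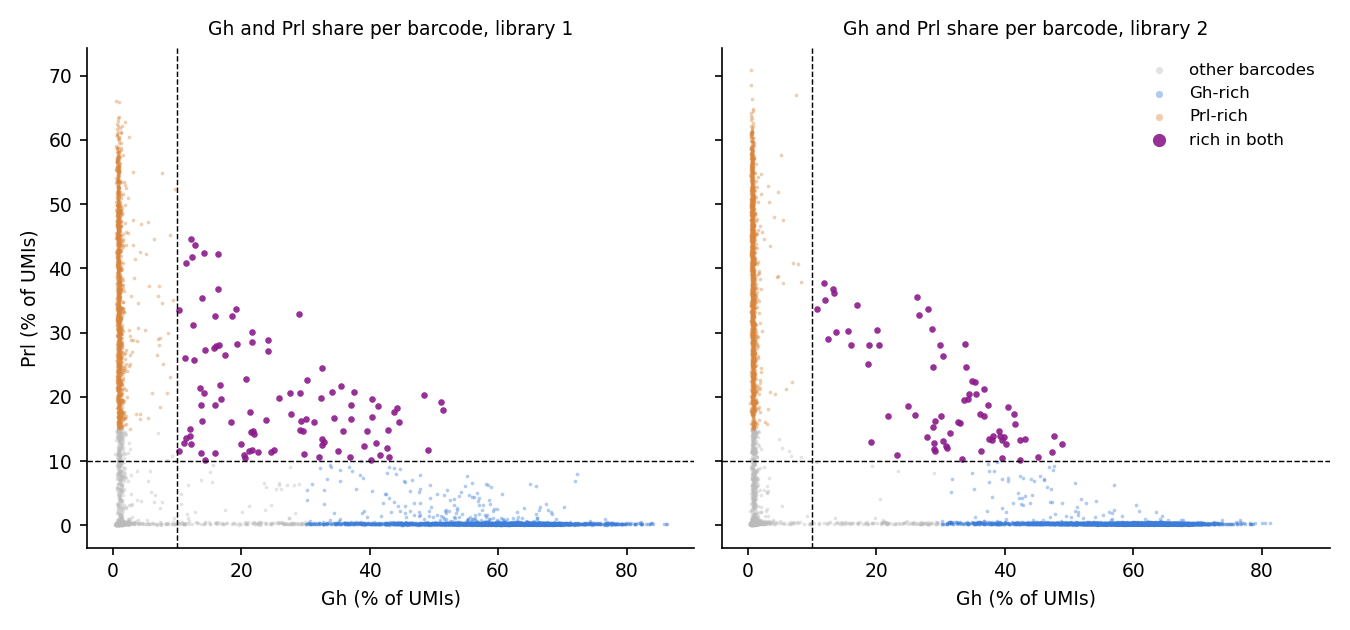
Share of UMIs in Gh (x axis, %) and Prl (y axis, %) for each barcode past the filters, 1 panel per library, with the 10% limits dashed. Purple points are the 101 and 72 members, which fill the area between the Gh-rich and the Prl-rich arms and thin out away from the dashed limits.

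Around the limit the counts changed little. The smaller of the 2 hormone shares lay between 10% and 12% in 25 and 11 members, and between 8% and 10% in 23 and 14 barcodes just outside. With the limit at 15% there were 47 and 37 members, and at 20% there were 14 and 16.

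Depth outside Gh and Prl was measured next, because the hormones alone could raise a total. In library 2 members had 4049, 10249.5 and 15595 UMIs as the lowest, median and highest value, against medians of 5263 in Gh-rich and 5764 in Prl-rich barcodes. Their median was higher, while their range lay inside those of the single-hormone groups, 688 to 23622 and 1626 to 21392. In library 1 they ran from 901 to 16752 with a median of 6065, against 4960 and 5649. The member median was thus 0.929 of the sum of the single-hormone medians in library 2 and 0.572 of it in library 1. Over the library medians, members were higher than Gh-rich and than Prl-rich barcodes in both libraries (two-sided exact permutation test, p = 0.333 each). With 2 medians against 2, that is the smallest p the test can give.

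Genes per barcode followed the same order. Members had medians of 2282 genes in library 1 and 3313.5 in library 2, Gh-rich barcodes 2110 and 2169, and Prl-rich barcodes 2181 and 2209. After each barcode was thinned at random to 2000 UMIs outside Gh and Prl, the member medians were 1085 and 1097 genes, the Gh-rich medians 1105.5 and 1095, and the Prl-rich medians 1062 and 1056. At equal depth the member medians thus lay within or next to the range of the other groups (two-sided exact permutation test, p = 0.667 against Gh-rich and 0.333 against Prl-rich, with 0.333 the smallest possible). The thinning left out 12 members of library 1 and 0 of library 2. Mitochondrial shares of members had medians of 2.27% and 2.15%, against 1.88% and 1.90% in Gh-rich and 2.74% and 2.47% in Prl-rich barcodes. These are shares of all UMIs, Gh and Prl included. Their order therefore depends in part on the hormone shares that chose the groups. Counted outside the hormones, the mitochondrial gene mt-Cytb was below both groups, as given further on.

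**Figure D2:**
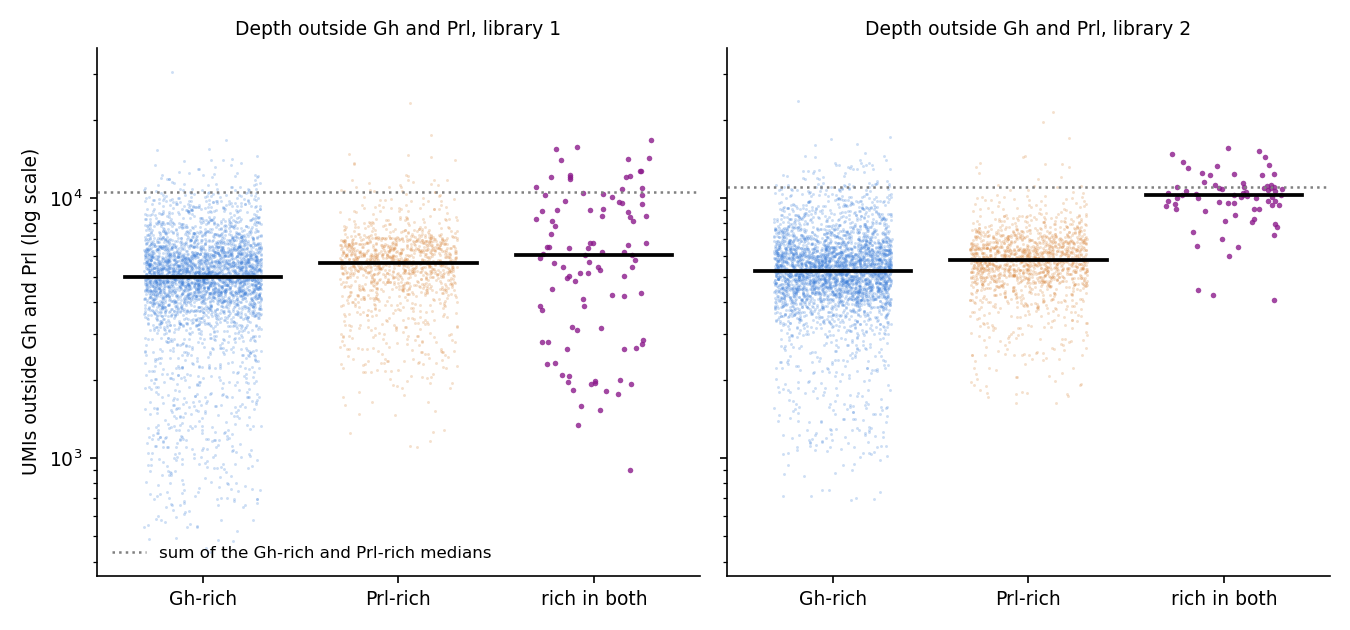
UMIs outside Gh and Prl per barcode (y axis, log scale) by group, 1 panel per library, with black bars at the medians and a dotted line at the sum of the Gh-rich and Prl-rich medians. Members of library 2 gather just under the dotted line (median 10249.5), and those of library 1 spread from well below the single-hormone medians to above the line.

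The spread in library 1 called for a split by depth. A member was called deeper when its UMIs outside the hormones were above the 75th percentile of the Gh-rich barcodes of its library, which was 6064.75 in library 1 and 6309 in library 2. By that rule, which fixes the direction of the depth of each kind, 51 of 101 members were deeper in library 1 (50.5%, 40.4 to 60.6) and 68 of 72 in library 2 (94.4%, 86.4 to 98.5). Among Prl-rich barcodes 37.5% and 34.1% passed the same limit. The deeper members had medians of 9517 and 10312.5 UMIs outside the hormones, which is 0.897 and 0.935 of the summed single-hormone medians. The 50 shallower members of library 1 had a median of 3144, which is 0.296 of that sum and below either single-hormone median. Library 2 held 4 shallower members, with a median of 4333. Shallower members were thus almost wholly a feature of library 1.

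Scrublet, which scores each barcode by its likeness to summed pairs of barcodes of the same library, was run per library. Of the 7.6% of barcodes with the highest scores, members made up 42 in library 1 (41.6% of members) and 58 in library 2 (80.6% of members). Among Gh-rich barcodes 6.23% and 6.77% were in that upper range, and among Prl-rich barcodes 4.15% and 4.03%. Deeper members supplied 28 of the 42 and 56 of the 58. A fit without these barcodes left them out of every group, the single-hormone groups and the mix included. The score reads the same counts as the hormone rule, so it is not independent of how members were chosen.

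Genes that mark only one of the hormone cell types were then read as levels in CPM, which here counts only UMIs outside Gh and Prl. Counts were summed per group and library. The test was edgeR's quasi-likelihood test with the library as a block, and p-values were adjusted by Benjamini-Hochberg over 12750 genes. A mix column stood for equal numbers of Gh-rich and Prl-rich barcodes, 1230 in all in library 1 and 1512 in library 2, kept out of the single-hormone columns. Comparisons with Gh-rich, Prl-rich and mix share the member columns, and the comparison of Gh-rich with Prl-rich that defines specific genes shares the single-hormone columns.

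Ghrhr encodes the receptor for growth hormone releasing hormone, the hypothalamic drive on somatotropes, and lies on chromosome 6 at 55376295 to 55388530. Its level in members was 74.4 CPM in library 1 and 119 in library 2, against 277 and 250 in Gh-rich and 7.25 and 7.02 in Prl-rich barcodes. Members thus lay between the single-hormone groups in both libraries, without overlap. The log2 fold change was -1.40 ± 0.12 (SE) against Gh-rich (edgeR adjusted p = 1.75e-08) and 3.69 ± 0.22 against Prl-rich (edgeR adjusted p = 4.26e-11). In the mix Ghrhr stood at 126 and 120 CPM, a log2 difference of -0.36 ± 0.13 for members that did not pass the test (edgeR adjusted p = 0.557). Without the barcodes of highest Scrublet score it was -0.86 and passed (edgeR adjusted p = 0.0137).

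Angpt1 encodes angiopoietin 1, a ligand of the endothelial receptor Tie2, and marked Prl-rich barcodes. It lies on chromosome 15 at 42424723 to 42676977. Members held 74.4 and 61.7 CPM, Gh-rich barcodes 3.86 and 2.93, Prl-rich barcodes 104 and 106, and the mix 50.3 and 56.9. The order was the reverse of that of Ghrhr and again without overlap. The log2 fold change was 4.34 ± 0.25 against Gh-rich (edgeR adjusted p = 6.88e-16), -0.71 ± 0.15 against Prl-rich (edgeR adjusted p = 0.00186) and 0.30 ± 0.16 against the mix (edgeR adjusted p = 0.724). The difference from Prl-rich barcodes did not pass without the barcodes of highest Scrublet score (-0.32, edgeR adjusted p = 0.639) or in the shallower members alone (-0.45, edgeR adjusted p = 0.751).

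Pou1f1 was at 442 and 340 CPM in members, 315 and 324 in Gh-rich, 508 and 464 in Prl-rich barcodes and 447 and 408 in the mix. Both single-hormone groups expressed it, with members in between. The log2 fold change was 0.31 ± 0.08 against Gh-rich (edgeR adjusted p = 0.00619) and -0.40 ± 0.08 against Prl-rich (edgeR adjusted p = 0.000488). Against Gh-rich the call was lost with DESeq2 (adjusted p = 0.0564), with members at 15% (0.24, edgeR adjusted p = 0.114) and at 20% (0.11, edgeR adjusted p = 0.810), in the shallower members alone and without the library block.

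Ghrhr and Angpt1 UMIs occurred together in 13 of 101 members in library 1 (12.9%, 7.04 to 21.0) and in 22 of 72 in library 2 (30.6%, 20.2 to 42.5). In Gh-rich barcodes both were seen in 1.11% and 1.01%, in Prl-rich barcodes in 1.79% and 1.78%, and in endothelial-marked barcodes in 0 of 130 and 0 of 174, which allows up to 2.80% and 2.10% by the exact interval. Median totals differed, at 11511 and 21185.5 UMIs in members, 12996 and 13877 in Gh-rich, 8999 and 9616 in Prl-rich and 4636 and 4496 in endothelial-marked barcodes. Deeper members supplied 12 of the 13 and 22 of the 22. After thinning to 2000 UMIs outside the hormones, 1 of 89 members held both in library 1 (1.12%, 0.0284 to 6.10) and 1 of 72 in library 2 (1.39%, 0.0352 to 7.50), so that the co-occurrence was hardly measurable at that depth. Thinned Gh-rich and Prl-rich barcodes showed 0.200% to 0.331%. A UMI of any Gh-specific gene with one of any Prl-specific gene was found in nearly every barcode of every group, endothelial-marked ones included, and separated nothing.

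Across all genes, members differed from each single-hormone group far more often than from the mix. They were higher than Gh-rich barcodes in 713 genes (5.59%) and lower in 530 (4.16%), together 9.75%. Against Prl-rich barcodes 447 were higher (3.51%) and 400 lower (3.14%), together 6.64%. With totals alone as the scale the second pair was 591 and 225. Against the mix 1 was higher (0.00784%) and 4 were lower (0.0314%) by edgeR, together 0.0392%, while DESeq2 called 3 and 1, and 898 genes had an unadjusted edgeR p under 0.05. That small number was not stable: with members at 15% it was 15 and 32, and without the barcodes of highest Scrublet score 74 and 53. The fit without those barcodes kept 59 and 14 members. Its median prior degrees of freedom were infinite, against 113 at 15% and 31.4 in the main fit, so these counts are not like for like. For comparison, Gh-rich barcodes were higher than Prl-rich ones in 2945 genes (23.1%) and lower in 2907 (22.8%), together 45.9%. Among the 3070 genes with at least 50 CPM in members or mix, 99.4% in library 1 and 99.6% in library 2 lay within 2-fold of the mix. For the Gh-rich level the shares were 96.0% and 97.1%, and for the Prl-rich level 98.0% and 97.7%. Most genes were thus near all the references, and the specific genes carry the contrast.

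There were 52 Gh-specific genes (0.408% of those tested), called higher in Gh-rich than in Prl-rich barcodes, at least 4-fold apart and at least 50 CPM. In members 50 of the 52 were lower than in Gh-rich and 51 were higher than in Prl-rich barcodes, with median log2 fold changes of -1.06 and 2.05, where the medians of all genes tested were -0.0027 and 0.0078. Against the mix 0 of the 52 passed, with a median of -0.23. All 52 lay between the single-hormone levels in library 1 and in library 2. Since Gh-rich and Prl-rich columns chose these genes, the direction between them was in part fixed by the choice.

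The most Gh-specific genes show the pattern one by one. Ceacam10, a cell adhesion family member, was at 43.1 and 69.9 CPM in members, 141 and 141 in Gh-rich, 1.16 and 2.26 in Prl-rich and 63.4 and 68.2 in the mix. Pappa2, a protease that cleaves binding proteins of insulin-like growth factors, was at 37.2 and 63.1 in members, 100 and 126 in Gh-rich, 1.45 and 2.49 in Prl-rich and 53.8 and 64.5 in the mix. In both genes library 2 was close to the mix and library 1 was below it. Neither passed against the mix. Ceacam10 did without the barcodes of highest Scrublet score (-1.13, edgeR adjusted p = 0.0481). Pappa2 did in the shallower members (-3.48, edgeR adjusted p = 0.0466), a call that rests on 1 UMI in 50 barcodes of library 1 and 0 in 4 of library 2. Cidea, a lipid droplet protein, was at 41.7 and 126 CPM in members, 204 and 306 in Gh-rich, 5.51 and 7.92 in Prl-rich and 117 and 158 in the mix. It had the widest gap to the mix of the 7 genes named here, with a log2 difference of -0.74 ± 0.18 that did not pass (edgeR adjusted p = 0.369). It did with no filter on low counts (-0.78, edgeR adjusted p = 3.89e-06), with the members' threshold at 15% (-1.05, edgeR adjusted p = 5.72e-05) and at 20% (-1.37, edgeR adjusted p = 0.00277). Those fits lean more on the spread shared across genes. The median prior degrees of freedom were 31.4 in the main fit, 113 at 15%, and infinite with no filter and at 20%. With no filter the log2 difference itself hardly changed. Wnt10a, a secreted Wnt ligand, was at 23.8 and 39.8 in members and 37.2 and 39.8 in the mix. Arhgap36, Fam46c and Car10 fell in the same place between the groups, at 37.2 and 50.7, 26.8 and 30.2, and 22.3 and 46.6 CPM in members.

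Prl-specific genes, defined likewise, numbered 49 (0.384%). In members 48 were higher than in Gh-rich and 40 were lower than in Prl-rich barcodes, with median log2 fold changes of 2.13 and -0.78. Against the mix 1 of the 49 was lower and 0 were higher, with a median of 0.09. All 49 lay between the single-hormone levels in both libraries. Agtr1a, the type 1a angiotensin receptor, was at 123 and 80.9 CPM in members, 2.21 and 2.43 in Gh-rich, 156 and 175 in Prl-rich and 80.1 and 84.8 in the mix. Its level in library 1 was above the mix and in library 2 near it. Hepacam2, an immunoglobulin-domain adhesion molecule, was at 161 and 140 in members, 13.6 and 14.8 in Gh-rich, 262 and 242 in Prl-rich and 134 and 133 in the mix. Lgals1, a galactose-binding lectin, was at 129 and 121 in members and 84.9 and 97.0 in the mix, a log2 difference of 0.42 ± 0.13 that did not pass (edgeR adjusted p = 0.373). Gabra2, a subunit of the GABA type A receptor, was at 29.8 and 35.6 in members and 35.05 and 27.3 in the mix. Edil3, Gnai1 and Lrp1b were between the groups too, at 89.3 and 71.3, 29.8 and 45.2, and 50.6 and 21.9 CPM in members.

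**Figure D3:**
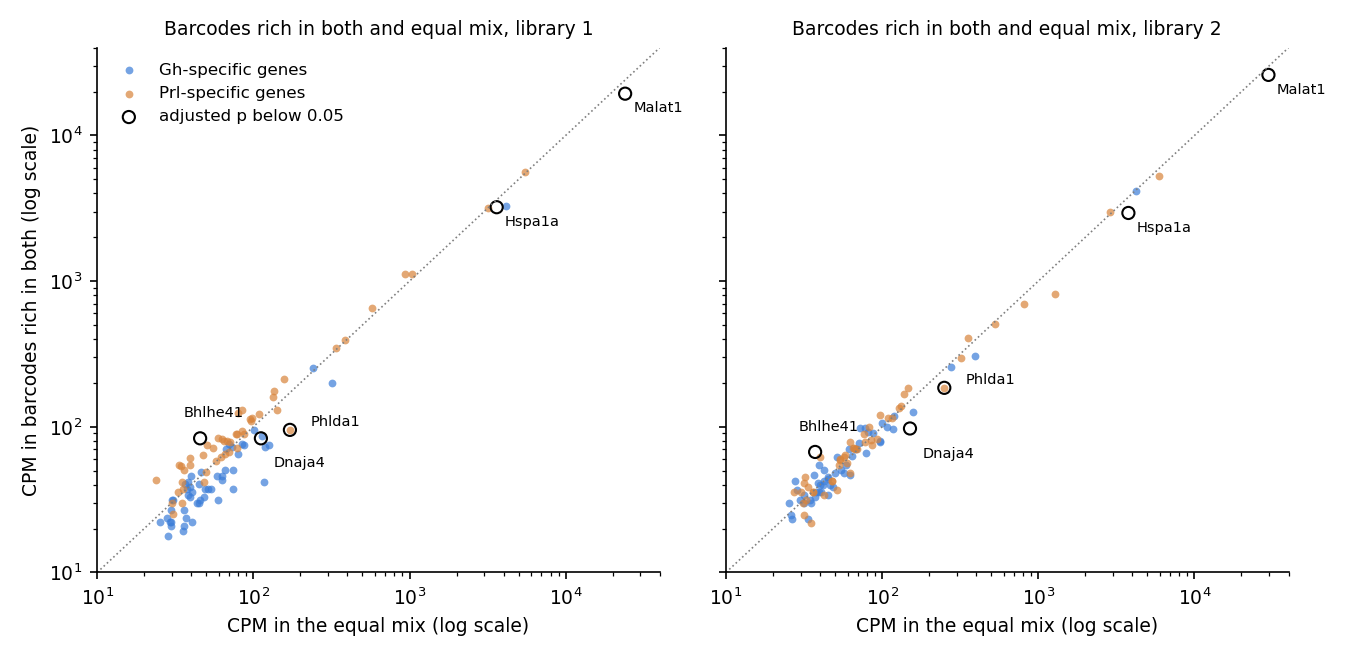
CPM in members (y axis, log scale) against CPM in the equal mix (x axis, log scale) for the 52 Gh-specific (blue) and 49 Prl-specific (orange) genes, 1 panel per library, with equality dotted and the 5 genes past the test circled and named. Points follow the dotted line in both panels, and in library 1 the blue points fall mostly under it.

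How far between the groups each gene lay was put on a scale from 0, the Prl-rich level, to 1, the Gh-rich level. For this the specific genes were chosen on the other library, with 4-fold and 50 CPM. In library 1 the median position was 0.337 over 60 Gh-specific genes (quartiles 0.254 and 0.398) and 0.385 over 47 Prl-specific genes (0.247 and 0.458). In library 2 it was 0.455 over 61 (0.393 and 0.525) and 0.492 over 48 (0.399 and 0.559). The mix stood at 0.467 and 0.479 in library 1 and at 0.477 and 0.487 in library 2. Members of library 2 were thus near the mix on both kinds of gene, and those of library 1 were nearer to the Prl-rich level on both. Deeper members lay at 0.392 and 0.426 in library 1 and at 0.463 and 0.508 in library 2. Shallower members of library 1 lay at 0.161 and 0.264, so that the lean of library 1 was larger in them. Their specific genes summed to 4782 CPM for Gh-specific and 18989 for Prl-specific genes. Endothelial-marked barcodes of library 1 held 4897 and 10771, and Prl-rich barcodes 2582 for Gh-specific genes. The Gh-specific level of the shallower members was thus no higher than in endothelial-marked barcodes, and above that of Prl-rich ones. The specific genes were chosen by comparing Gh-rich with Prl-rich barcodes only. Whether endothelial cells express some of them was not tested. No test was made of these positions.

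**Figure D4:**
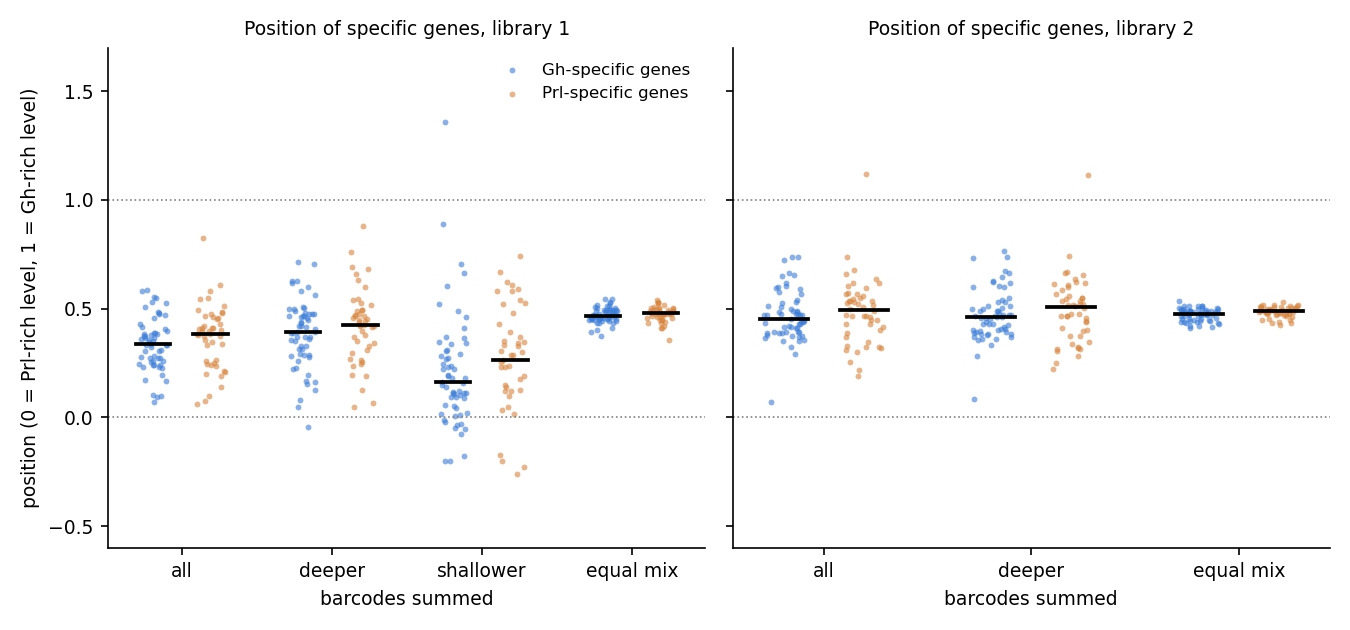
Position of each specific gene between the Prl-rich level (0) and the Gh-rich level (1) on the y axis, for all members, deeper members, shallower members (library 1 only) and the equal mix, 1 panel per library, with black bars at the medians. Medians of library 2 are near those of the mix (0.477 and 0.487) and those of the shallower members of library 1 are the lowest (0.161 and 0.264). Points beyond -0.5 or 1.5 are not drawn, at most 4 per column.

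The hormones sat at similar positions when counted per 1000 UMIs outside them. In library 1 summed members held 521 Gh and 381 Prl UMIs per 1000 others, which is position 0.324 on the Gh scale and 0.383 on the Prl scale. In library 2 they held 652 and 404, at positions 0.432 and 0.404. The mix held 749 and 321 in library 1 and 731 and 363 in library 2. These levels follow from the rule and are a description.

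Members with more Gh relative to Prl also had more of the Gh-specific share among their specific UMIs. Spearman's rho across members was 0.53 in library 1 (n = 101) and 0.63 in library 2 (n = 72), and Pearson's r 0.53 and 0.70. The points share their library and each barcode's depth, so no p is given. In library 1 the 21 members with under 40% Gh among both hormones had a median of 4322 CPM of Gh-specific and 20813 of Prl-specific genes. The 46 members with 60% to 80% Gh had 7832 and 14273. In library 2 the medians were 4264 and 19626 over 11 members, and 8663 and 12794 over 43. The few members above 80% Gh, 2 and 3 in number, had 7950 and 8292 in library 1 and 11617 and 11099 in library 2. The summed mix held 8182 and 14717 in library 1 and 8183 and 14990 in library 2, so the members with 60% to 80% Gh were near the mix and those under 40% leaned to the Prl-rich side.

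On the authors' deposited t-SNE map, the 15 nearest barcodes of a member in library 1 were 33.3% Gh-rich, 44.6% Prl-rich and 9.83% other members on average. In library 2 they were 65.9% Gh-rich, 9.26% Prl-rich and 14.3% other members. No member in either library had mostly members around it. How the map was made is not stated, and it rests on the same cells, so it is a description.

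Only 5 genes differed from the mix past the test. Bhlhe41, a circadian transcriptional repressor on chromosome 6 at 145858243 to 145865558, was at 83.3 and 67.2 CPM in members against 45.6 and 37.2 in the mix, and 39 and 29 members held a UMI of it. The log2 difference was 0.83 ± 0.16 (edgeR adjusted p = 0.0253). Its levels of 54.7 and 43.1 in Gh-rich and 35.4 and 25.8 in Prl-rich barcodes were lower as well. The call was lost in the deeper members alone (0.61, edgeR adjusted p = 0.371), with members at 15% (0.77, edgeR adjusted p = 0.116), without the barcodes of highest Scrublet score (0.83, edgeR adjusted p = 0.110) and without the library block. The direction turned with members at 20% (-0.22, edgeR adjusted p = 0.914).

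Malat1, a nuclear non-coding RNA on chromosome 19 at 5795690 to 5802672, was the most abundant of the 4 that were lower. It was at 19354 and 26044 CPM in members, 20812 and 26253 in Gh-rich, 26505 and 32857 in Prl-rich and 24034 and 29758 in the mix. Members were thus at or under the Gh-rich level in each library, with a log2 difference of -0.28 ± 0.02 from the mix (edgeR adjusted p = 1.92e-11). Hspa1a, an inducible heat shock protein whose near-identical copy Hspa1b can share its reads, was at 3216 and 2936 CPM against 3615 and 3774 (-0.30 ± 0.04, edgeR adjusted p = 0.000277). Dnaja4, a co-chaperone of the same system, was at 83.3 and 97.3 against 112 and 151 (-0.57 ± 0.11, edgeR adjusted p = 0.0253). Phlda1, an early-response gene and 1 of the 49 Prl-specific genes, was at 95.2 and 185 against 171 and 250 (-0.63 ± 0.11, edgeR adjusted p = 0.0253). With DESeq2 only Malat1 of these 4 remained past the test, and without the library block none did. In the deeper members alone 3 genes were higher and 12 lower, of which 2 are among these 5.

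Genes above or below both single-hormone groups were counted next, since a sum of the groups lies between them. In 14 genes members were above both (0.11%), and in 5 below both (0.0392%). The rule for naming genes took 5 of the 14. Pam, the enzyme that amidates peptide hormones, was at 849 and 403 CPM in members, 471 and 312 in Gh-rich and 407 and 275 in Prl-rich barcodes, and 90 and 64 members held a UMI of it. Its excess was larger in library 1, with log2 fold changes over both libraries of 0.66 ± 0.12 and 0.75 ± 0.12 (edgeR adjusted p = 0.0126 and 0.0110). With members at 20% the sign turned (-0.089 and -0.0016), and at 15% neither call held (0.53 and 0.62). Both Pam calls were also lost without the library block and without the barcodes of highest Scrublet score. Crispld2, a secreted protein of the CAP family, was at 58.0 and 42.5 CPM against 35.2 and 27.4 in Gh-rich and 12.5 and 13.6 in Prl-rich (edgeR adjusted p = 0.0158 and 1.07e-06). Without members high in markers of other cell types its log2 fold change against Gh-rich was 0.18 (edgeR adjusted p = 0.764). That call was also lost with DESeq2 (adjusted p = 0.0506), without the library block, with members at 15% and at 20%, without the barcodes of highest Scrublet score (0.25, edgeR adjusted p = 0.788), and in the shallower and the deeper members alone. Rnf220, a ubiquitin ligase, was at 40.2 and 65.8 CPM against 32.1 and 37.5 and 29.3 and 26.5. It lost both calls in the shallower members, with members at 20% and without the barcodes of highest Scrublet score. Its call against Gh-rich was also lost with DESeq2, without the library block and without members high in other markers. Arl6ip1, a membrane-shaping protein of the endoplasmic reticulum, was at 296 and 329 CPM against 277 and 256 and 257 and 229. It turned direction in the shallower members (-0.67 and -0.62), and both calls were lost with DESeq2, without the library block and without members high in other markers. Bhlhe41 was the fifth.

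Also among the 14 were Abhd2, Col3a1, Id3, Ifitm1, Nusap1, Rarres2, Spp1 and Tagln, named here after their values were seen. Col3a1, Ifitm1, Rarres2 and Tagln, genes known from fibroblasts, vessel walls and other stroma, had 0 UMIs in members of library 2. In library 1 a single member held all 19 UMIs of Ifitm1 and 85.7% of those of Tagln. One member held 94.1% of the Spp1 and one 87.5% of the Id3 UMIs of library 2. Nusap1, a spindle protein, was seen in 4 and 3 members. These genes rest on few barcodes, whereas Abhd2 was seen in 34 and 19 members. Both calls of Abhd2 were lost without the library block and with members at 15% and at 20%. Its call against Gh-rich was also lost with DESeq2 (adjusted p = 0.0775), in the deeper members alone and without members high in other markers.

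Below both groups were Med9, Ptp4a1, Herpud1, mt-Cytb and Ubb. Herpud1, which acts in degradation of misfolded proteins at the endoplasmic reticulum, was at 216 and 212 CPM against 260 and 273 in Gh-rich and 225 and 263 in Prl-rich barcodes (edgeR adjusted p = 0.0152 and 0.0353). Ptp4a1, a phosphatase, was at 132 and 134 against 161 and 190 and 167 and 162 (edgeR adjusted p = 0.0119 and 0.0142). Med9, a Mediator subunit, was at 47.6 and 32.9 against 66.9 and 59.7 and 56.3 and 59.5 CPM. mt-Cytb, the mitochondrial cytochrome b gene, differed by -0.12 ± 0.03 and -0.11 ± 0.03 on the log2 scale. With DESeq2, without the barcodes of highest Scrublet score and in the shallower members, Herpud1, Ptp4a1 and Med9 lost both calls. Herpud1 also lost both with members at 15%, without members high in other markers and without the library block, Ptp4a1 without the block and with members at 20%, and Med9 at 15%, at 20% and without members high in other markers. With no scaling beyond totals the calls of these 3 genes and of mt-Cytb against Prl-rich were lost. With DESeq2, 6 genes were above both and 1 was below both.

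Gene lists of the pituitary, chosen with earlier results known, gave counts to be read against the shares of all genes, of which 5.59% were higher and 4.16% lower than in Gh-rich, and 3.51% higher and 3.14% lower than in Prl-rich barcodes. Of the 8 tested somatotrope markers, 7 were lower than in Gh-rich and 7 higher than in Prl-rich barcodes, and 0 differed from the mix. The median log2 fold changes were -1.18 and 2.65. Neurod4 was the eighth, at 34.2 and 26.0 CPM in members and at similar levels in every group. Of the 8 tested lactotrope markers 6 were higher and 2 lower than in Gh-rich, and 2 higher and 5 lower than in Prl-rich barcodes. Prlr, the prolactin receptor, and Calb1, a calcium-binding protein, were the 2 that went the opposite way, since Gh-rich barcodes held more of both. Prlr was at 46.1 and 86.4 CPM in members, 100 and 108 in Gh-rich and 27.3 and 30.8 in Prl-rich. All 8 members of either list had a mean level between the single-hormone groups, against 46.4% of all genes. The share of all genes includes many that do not differ between those groups, so the comparison is not of like genes. Neurod4 counts as between although its levels were similar in every group.

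Among 19 tested transcription factors of the Pou1f1 lineage, 7 were higher and 2 lower than in Gh-rich, and 2 higher and 4 lower than in Prl-rich barcodes. Six6, a homeobox factor of early pituitary growth, was at 396 and 404 CPM in members, 110 and 109 in Gh-rich, 644 and 595 in Prl-rich and 384 and 354 in the mix. Lhx3, a LIM-homeobox factor of the gland, was at 80.3 and 48.0 against 15.01 and 14.5, 116 and 97.3, and 68.3 and 62.6 in the same order. Both were thus near the mix, with library 1 of Lhx3 above and library 2 below it. Gata2, a factor of thyrotropes and gonadotropes, was at 2.98 and 5.48 CPM against 16.8 and 17.6 in Gh-rich barcodes. These are low levels. The call was lost with members at 15% (edgeR adjusted p = 0.189) and at 20% (edgeR adjusted p = 0.616). It was also lost without the barcodes of highest Scrublet score (edgeR adjusted p = 0.118) and in the shallower members (edgeR adjusted p = 0.162).

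Of 21 nuclear receptors 4 were higher and 3 lower than in Gh-rich, and 4 higher and 2 lower than in Prl-rich barcodes. Nr3c1, the glucocorticoid receptor, was at 37.2 and 39.8 CPM in members, 68.7 and 80.5 in Gh-rich and 4.64 and 3.40 in Prl-rich. Rxrg, a retinoid X receptor, was at 46.1 and 45.2, 122 and 106, and 8.99 and 6.11 in that order. Members thus held both of these receptors at intermediate levels in both libraries. Esr1, the estrogen receptor that drives lactotropes, was at 89.3 and 90.5 in members, above the Gh-rich 52.0 and 41.9, and the difference from the Prl-rich 95.4 and 91.7 did not pass (edgeR adjusted p = 0.628).

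Of 18 hormone and neuropeptide receptors 1 was higher and 5 lower than in Gh-rich, and 5 higher and 1 lower than in Prl-rich barcodes. Ramp1, a co-receptor for calcitonin gene-related peptide, was at 115 and 82.2 CPM in members, 16.1 and 14.5 in Gh-rich, 184 and 179 in Prl-rich and 97.9 and 92.3 in the mix. Sstr5, a receptor for the inhibitor somatostatin, was at 5.95 and 12.3 in members, 21.3 and 20.5 in Gh-rich and 0 and 0.679 in Prl-rich. Of 11 genes of Stat5 signalling, the route used by both hormones' receptors, 3 were lower than in Gh-rich and 1 was higher than in Prl-rich barcodes. Stat3 was at 32.7 and 52.1 CPM against 73.7 and 80.5 in Gh-rich.

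Of 30 granule and exocytosis genes, 21 (70%) had a mean level between the groups, against 46.4% of all genes. On this list 12 genes were higher and 14 lower in Gh-rich than in Prl-rich barcodes, where 45.9% of all genes differed. The share between the groups is therefore not set against like genes. Of the 30, 11 were higher and 5 lower than in Gh-rich, and 4 higher and 7 lower than in Prl-rich barcodes. Chgb, a granin that packs hormone granules, was at 5603 and 5265 CPM in members, 1416 and 1716 in Gh-rich, 9451 and 9680 in Prl-rich and 5469 and 5900.0 in the mix. Scg2, another granin, was at 1174 and 1378 against 1200.4 and 1250.03 in the mix. Sytl4, which tethers granules, had the opposite bias, at 86.3 and 78.1 in members, 212 and 196 in Gh-rich and 9.86 and 7.02 in Prl-rich barcodes. Of 21 genes of folding in the endoplasmic reticulum 4 were higher and 3 lower than in Gh-rich, and 0 higher and 9 lower than in Prl-rich. Sdf2l1, an endoplasmic reticulum chaperone partner, was at 293 and 407 in members, 191 and 188 in Gh-rich and 451 and 535 in Prl-rich. Manf, a secreted stress protein, was at 1090.3 and 1349, 988 and 967, and 1461 and 1621 in that order.

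Of 23 immediate early genes, which react to handling of cells, 1 was higher and 9 were lower than in Gh-rich, and 4 higher and 3 lower than in Prl-rich barcodes. Atf3 was at 59.5 and 108 CPM in members, 120 and 136 in Gh-rich and 32.8 and 47.5 in Prl-rich. Of 27 ion channel genes 3 were higher and 2 lower than in Gh-rich, and 6 higher and 1 lower than in Prl-rich. Gria2, a glutamate receptor subunit, was at 78.8 and 69.9 in members, 22.3 and 16.1 in Gh-rich and 113 and 112 in Prl-rich. Kcnk2, a potassium leak channel, was at 132 and 141, 252 and 225, and 62.9 and 54.3. Across these 8 lists from lineage factors to channels, Hspa1a was the only member that differed from the mix. Of 24 cell cycle genes 1, Nusap1, was higher than in Gh-rich, a share below the 5.59% of all genes, and 4 were higher than in Prl-rich barcodes, where 3.51% of all genes were.

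Markers of other cell types marked out some members of library 1. A barcode was counted as high when its summed level on any of 10 lists, cell cycle among them, was above the 99th percentile of the single-hormone barcodes of its library. This held for 25 of 101 members in library 1, of which 19 were among the 50 shallower and 6 among the 51 deeper, and for 5 of 72 in library 2. In single-hormone barcodes the share was between 7.72% and 8.86%. Pomc, the corticotrope and melanotrope hormone precursor, was at 15482 CPM in the shallower members of library 1, where 5 barcodes held 94.8% of its UMIs, and at 605 in the deeper ones. Cga, the subunit shared by gonadotrope and thyrotrope hormones, was at 6853 against 331, with 94.7% in 5 barcodes. Lhb, a gonadotrope hormone subunit, was at 1898 CPM in the shallower members, with 94.5% in 5 barcodes, and at 86.2 in the deeper ones. Tbx19, a corticotrope and melanotrope marker, and Gnrhr, a gonadotrope marker, were at 0 in members of library 1, and Tshb was at 34.2 CPM there. Of 7 markers per list, 3 on the corticotrope and melanotrope list and 4 on the gonadotrope list had UMIs in those members. Pomc, Cga and Lhb are among them. Haemoglobin genes were high in library 1 through 1 barcode among the deeper and 1 among the shallower members, with a summed list of 9263 CPM there and 80.9 in library 2, against 1132 to 1291 in the single-hormone groups. The fibroblast and pericyte list was at 358 and 151 CPM in members, 111 and 97.7 in Gh-rich and 187 and 164 in Prl-rich. The part of these markers in the results was not tested beyond the values given without such members. The summed corticotrope list was at 4495 and 1312 CPM in members, 1224 and 1003 in Gh-rich and 1462 and 1513 in Prl-rich barcodes. The summed gonadotrope list was at 2608 and 958, 1572 and 1387, and 1465 and 980 in that order. Without the members high on any list, position medians were 0.333 and 0.365 in library 1 and 0.465 and 0.496 in library 2. Against the mix 0.83 for Bhlhe41 became 0.77 (edgeR adjusted p = 0.0791).

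The members were to be compared with pairs of cells and with single cells that hold both hormones. Members of library 2 had a median of UMIs outside the hormones close to the sum of both groups, and specific genes near the levels of the mix. Members of library 1 had a lower median, at 0.572 of that sum, and specific genes nearer to the Prl-rich level. Of the 50 shallower members of library 1, split off by their depth, 19 were high on a list of other markers, against 6 of the 51 deeper. Most of their Pomc and Cga UMIs lay in few barcodes. The endothelial, pituicyte and cell cycle lists were at lower summed levels in the shallower than in the deeper members. Whether any one barcode held 1 cell, 2 cells or freed RNA was not tested. By these counts, a pair of cells and a large cell with both programmes at intermediate levels cannot be told apart.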

How the data were processed

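The matrix deposited by the authors holds raw UMI counts of 28693 genes in 13663 barcodes. The submitters' processing notes name Cell Ranger, STAR and mm10, without versions. Whether depth was equalised between the libraries is not stated. The libraries held 70813117 and 78861988 UMIs. No doublet caller chose the cells, since the question concerns doublets. Scrublet (scanpy 1.11.5) served as a description and an alternative. Counts were summed per cell group and library, with Gh and Prl left out of totals, and entered 1 fit of 8 columns with edgeR 4.0.16 (robust quasi-likelihood, TMM, filterByExpr, 3 residual degrees of freedom, Benjamini-Hochberg at 0.05). The library was a block because all groups of a library come from the same pool. DESeq2 1.42.0 was an alternative. The fit was tested on simulated counts. The members, gene lists and tests were chosen with earlier results of these data known. Named genes were the given markers, up to 8 per direction of each comparison (past the test, same direction in both libraries, at least 50 CPM, no predicted names) and up to 4 per list. Repeated gene symbols, 58 in all, were told apart by their identifiers. Single-hormone levels in CPM are those of the columns in the fit, which hold 1805 and 1787 Gh-rich and 615 and 757 Prl-rich barcodes. Summed levels of the marker lists of other cell types use all Gh-rich and Prl-rich barcodes. Some genes that met the rule for naming are not reported here.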

Additional observations from a re-analysis of the deposited data

How the results depend on the processing

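Counts below give genes higher, then lower. Without the library block (no replicate block) they were 513 and 291 against Gh-rich, 271 and 205 against Prl-rich, 0 and 0 against the mix, and 2 and 0 beyond both groups. DESeq2 gave 251 lower than Gh-rich, 239 lower than Prl-rich, 3 and 1 against the mix and 6 and 1 beyond both. With no scaling beyond totals, 225 were lower than Prl-rich, 3 were higher than the mix and 3 below both. With no filter on low counts, 16 and 26 differed from the mix and 24 and 14 were beyond both. With members at 15% there were 84 members, 410 genes higher than Gh-rich, 293 higher than Prl-rich, 15 and 32 against the mix and 21 below both. With members at 20% there were 30 members, 143 and 201 against Gh-rich, 158 higher than Prl-rich, 23 and 77 against the mix and 26 and 40 beyond both. Without the highest Scrublet scores, left out of every group, there were 73 members, 190 and 214 against Prl-rich, 74 and 53 against the mix, 66 and 28 beyond both, and mean positions over the libraries of 0.303 for Gh-specific and 0.360 for Prl-specific genes. Shallower members alone gave 219 and 122 against Gh-rich, 90 and 21 against Prl-rich, 67 higher than the mix, 58 and 3 beyond both, and positions of 0.0740 and 0.235. Among alternatives chosen after seeing the data, deeper members alone gave 3 and 12 against the mix and 9 and 15 beyond both, and members without high markers of other types gave 7 lower than the mix and 4 and 10 beyond both. Thinned to 1000 UMIs, 97.8% of members held both kinds of specific UMI. With 1 library left out, members numbered 72 to 101, the ratio of UMIs outside the hormones to the summed medians was 0.572 to 0.929, the positions were 0.337 to 0.455 and 0.385 to 0.492, and no test was possible with no residual degrees of freedom.

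Signs turned in 10 values of named genes. With members at 20% the log2 fold change of Bhlhe41 was -0.22 against the mix and -0.41 against Gh-rich, that of Pam was -0.089 against Gh-rich and -0.0016 against Prl-rich, and that of Rnf220 was -0.12 against Gh-rich. In shallower members Arl6ip1 was at -0.67 against Gh-rich and -0.62 against Prl-rich, Prlr at -0.25 against Prl-rich, and Nusap1 at -1.51 and -1.03 in that order. The cause was not tested. The 4 shallower members of library 2 and the 173 members in all limit the depth of each sum, and 2 pools limit every test. Counts that gained genes at 20% rest on sums of 14 and 16 barcodes, and those without the highest Scrublet scores on 59 and 14. The median prior degrees of freedom were infinite in both of these fits, with no filter and in the shallower members. In the main fit they were 31.4, so counts of calls are not like for like between these settings.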
